A study of Homo sapiens with 8 samples.

Results

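The genes described here encode proteins that build, assemble or supply the mitochondrial respiratory chain and the mitochondrial ribosome. They were taken from the named rows by symbol: those starting with NDUF, UQC, ATP5, or with COX, MRPL, MRPS, TIMM or TOMM followed by a digit, and SDHA to SDHD. The rule found 142 of the 14812 genes with a named row, and no measured value entered it. Of the 142, 134 are protein-coding and 8 carry symbols of noncoding RNAs or pseudogenes that share the prefix. Expression was measured on 8 arrays. Knockdown arrays came from the multiple myeloma lines KMS11, KMS18, KMS34 and OPM2, all t(4;14), infected in 8 µg/mL polybrene, an agent that aids viral entry, with a lentivirus carrying an shRNA against MMSETI, which is named for an isoform of the histone methyltransferase NSD2. Control arrays came from the same 4 lines, whose labels carry the same protocol of lentiviral infection with polybrene, with the nature of the control not given in the sources used here. There was 1 knockdown and 1 control array per line, so the 4 lines serve as replicates of each condition. RNA was taken 48 h after the virus was replaced by growth medium, while the series text speaks of 72 h and names KMS11 alone.

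The respiratory chain passes electrons from nutrients to oxygen through complexes in the inner mitochondrial membrane, and the resulting proton gradient drives ATP synthase. A few subunits of these complexes are made inside the organelle by the mitochondrial ribosome (mitoribosome), whose own proteins are all encoded in the nucleus. Those proteins, like most subunits of the chain, enter through the outer membrane translocase (TOMM genes) and are sorted by the inner membrane translocases and the small chaperones between the membranes (TIMM genes). Plasma cells and the myeloma cells derived from them secrete large amounts of protein, which costs ATP.

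The named rows cover these families unevenly, and the label of respiratory chain fits them only in part. Set against RefSeq protein-coding symbols, they hold 48 of 49 MRPL genes, 25 of 28 MRPS genes, 13 of 15 TIMM genes, 10 of 10 TOMM genes, 23 of 29 COX genes and 10 of 15 UQC genes. They hold 3 of 20 ATP5 genes, 2 of 46 NDUF genes (NDUFAF7 and NDUFAF8, which help assemble complex I) and 0 of 4 SDH genes. The subunits of complexes I and II were therefore not analysed here, and the members are in the main mitoribosome proteins (73 genes), import proteins, and proteins of complexes III and IV. After genes under an intensity of 46.7 (the 25th percentile) were left out, 137 members remained among 11109 tested genes. The 5 left out were COX7A1, COX7B2 and COX8C, tissue-restricted forms of complex IV subunits, the pseudogene MRPL42P5 and TOMM20L. Their means lay between 23.4 and 40.2 on the knockdown arrays and between 24.2 and 41.8 on the control arrays. The tested members were bright: their median intensity was 217.4, against 120.5 for all tested genes, and 113 of 137 members lay at or above the median of all tested genes. RefSeq lists pseudogene copies for 64 members, up to 18 for COX6C, and a probe set may pick up such copies.

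The arrays had medians of 49.3 to 53.5 over all rows, lowest in KMS11 (49.3 knockdown, 49.9 control) and highest in KMS18 (53.4 and 53.5). NSD2, whose row is not assigned to an isoform, averaged 656 ± 75.9 on knockdown arrays and 743 ± 55.2 on control arrays (SD, n = 4 each). It was lower in all 4 lines but did not pass the test (log2 difference -0.18, limma adjusted p = 0.472). GLO1, a glyoxalase, fell to 566 ± 125 on knockdown arrays, against 946 ± 129 on control arrays (adjusted p = 0.00142). Plasma cell markers with a row included IRF4 (3183 knockdown, 3227 control), XBP1, MZB1, SLAMF7 and SDC1 (1008 knockdown, 926 control). The other plasma cell markers with a row were dimmer: CD38 ranged from 50.6 to 416.3 over the arrays, lowest in KMS11, and POU2AF1 averaged 78.9 on knockdown arrays and 76.9 on control arrays. Of the 5 T and NK cell markers with a row, all had means of at most 118, and the myeloid markers LYZ, CD14 and S100A8 lay under the intensity limit. The myeloid markers above the limit were CSF1R (77.0 knockdown, 81.4 control), MPO (55.2 knockdown, 60.0 control) and CST3, which many cells express (744 knockdown, 667 control). Whether a transcript is lower in all cells or present in fewer cells cannot be told apart in such bulk samples. No label says that cultures were repeated within a line, so p-values between lines measure only the spread between these arrays.

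MMSETI knockdown left the levels of these genes close to those of the control arrays. With cell line as a block, limma called 0 of 137 members at an adjusted p under 0.05, where 13 of all 11109 tested genes (0.117%) passed, 2 of them higher (0.0180%) and 11 lower (0.0990%). At an unadjusted p under 0.05 there were 5 members, or 3.65% of members against 8.41% of all tested genes. Of the 5, 1 was higher (4.26% of all tested genes) and 4 lower (4.15%). Differences had the same sign in all 4 lines for 25 members (18.2%, against 17.0% of all tested genes). Of these, 12 were higher (8.76% of members, against 8.29% of all tested genes) and 13 lower (9.49%, against 8.76%). The mean differences ranged from -0.25 to 0.24 on the log2 scale, with a median of -0.0036 (all tested genes -0.0033). Their median size was 0.0490, against 0.0571 for all tested genes. With any 1 line left out, 1 or 2 of all genes tested passed in place of 13, and without KMS11 the 5 members at an unadjusted p under 0.05 became 2. On simulated data of the same design with 200 changed genes, 62.4% of log2 differences of 0.4 were called, so smaller shifts of single members would often have been missed. The share called depends on how many genes change, and a case with as few calls as the 13 found here was not simulated.

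TIMM8A, a chaperone of the intermembrane space that guides inner membrane proteins, had the smallest p. It measured 202.8, 166.5, 215.7 and 183.2 on the knockdown arrays of KMS11, KMS18, KMS34 and OPM2, against 182.9, 135.5, 188.5 and 146.8 on the control arrays. The knockdown array was the higher of the pair in every line, although the groups overlapped, with KMS18 and OPM2 low in both. The difference was 0.24 ± 0.063 (log2, SE, n = 4), with a limma adjusted p of 0.288. MRPL10, a large-subunit protein at the base of the ribosomal stalk, measured 219.9, 113.5, 174.6 and 124.9 on knockdown arrays, against 229.2, 129.4, 231.9 and 156.6 on control arrays. Each knockdown array was below its own control, with log2 differences from -0.06 in KMS11 to -0.41 in KMS34, and the groups again overlapped. Its mean difference was -0.25 ± 0.071 (adjusted p = 0.372).

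TOMM40, the channel of the outer membrane translocase, measured 1584.7, 973.3, 1547.6 and 1546.5 on knockdown arrays, against 1768.0, 1050.2, 1681.7 and 1817.3 on control arrays. Each knockdown array was below its own control, with KMS18 low in both groups, and the mean difference was -0.16 ± 0.062 (adjusted p = 0.557). A second, dimmer TOMM40 row gave -0.05. The mitoribosome proteins MRPL41 (-0.16 ± 0.068) and MRPL48 (-0.15 ± 0.067) were also below control in all 4 lines, with adjusted p of 0.578 and 0.593. Beyond these 5, the members with the same sign in all lines and the next smallest p were UQCC5, an assembly factor of complex III (0.13 ± 0.064), MRPL44 of the large subunit (0.12 ± 0.061), MRPS17 of the small subunit (-0.14 ± 0.071), TOMM34, a cytosolic partner of import chaperones (-0.12 ± 0.063), TIMM50, the receptor of the inner membrane translocase (-0.11 ± 0.064), and MRPL50 of the large subunit (-0.11 ± 0.065). Their adjusted p were 0.616 to 0.684.

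**Figure D1:**
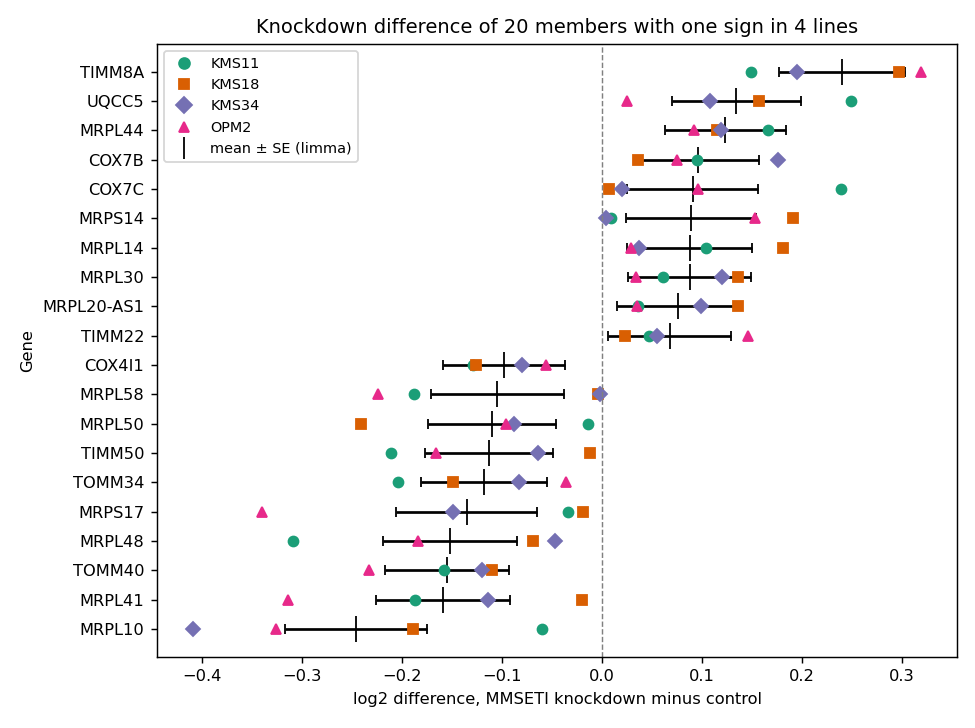
Log2 difference between the knockdown and the control array of each line (coloured symbols) for 20 members with the same sign in all 4 lines, with the mean and its standard error from limma (n = 4 lines). TIMM8A lies at 0.24 and MRPL10 at -0.25, and none of the 20 passed at an adjusted p under 0.05.

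Grouped by role, no class of member stood far from 0 under the knockdown. The 48 proteins of the large mitoribosome subunit had a median of -0.02, with 19 above and 29 below 0. The 25 of the small subunit had a median of -0.0036, with 11 above and 14 below. For the 14 tested complex IV subunits the median was 0.03, and COX4I1, the ubiquitous form of subunit 4, measured 3094.6, 2579.1, 2663.6 and 3143.5 on knockdown arrays, against 3385.2, 2815.5, 2816.5 and 3267.2 on control arrays. It lay below control in each line, with a mean difference of -0.10 ± 0.061 (adjusted p = 0.705). The 5 complex III members, among them UQCRC1 and UQCRC2, the core proteins, had a median of 0.01, and the 3 ATP synthase members ATP5IF1, ATP5MJ and ATP5MK also 0.01. The 13 TIMM genes had a median of -0.01 and the 9 tested TOMM genes one of 0.0078.

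Within single lines, where 1 array stands against 1 and no test is possible, the median difference over the members was small, above 0 in KMS18 and below 0 in KMS11 and OPM2. In KMS18, 94 of 137 members were higher on the knockdown array (68.6%, against 50.9% of all tested genes), with a median of 0.05. In KMS11, 52 were higher and 85 lower, with a median of -0.04, and 49.5% of all tested genes were higher. OPM2 had 59 higher and 78 lower with a median of -0.03, while 50.6% of all tested genes were higher. KMS34 had 66 higher (48.2%, against 46.6% of all tested genes) and 71 lower, with a median of -0.0050, and quantile normalization turned that median above 0. The mitoribosome genes alone had medians of -0.05 in KMS11, 0.06 in KMS18 and -0.06 in OPM2. In KMS18 the 43 tested cytosolic ribosomal protein genes also lay above 0, with a median of 0.08 (over the 4 lines 0.03, with 0 of the 43 called and 2 at an unadjusted p under 0.05), and their part in the mitochondrial shift was not tested.

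Differences of at least 1.25-fold within a line were rare. Percentages in brackets here are the shares of all tested genes. In KMS11 there were 0 higher (all tested genes 3.47%) and 1 lower (3.98%): TIMM44, which ties the import motor to the inner membrane channel, with 330.9 on the knockdown array and 419.5 on the control array. In KMS18 there were 2 higher (2.20%) and 0 lower (2.09%). These were ATP5IF1, the inhibitor of ATP hydrolysis by ATP synthase (282.1 knockdown, 223.2 control), and UQCRHL, a close copy of the complex III hinge protein UQCRH (511.8 knockdown, 406.8 control). In KMS34, MRPL35 was the 1 higher member (2.19%; 148.8 knockdown, 111.5 control) and MRPL10 the 1 lower (2.33%). In OPM2, MRPL1 was the 1 higher member (2.66%; 114.9 knockdown, 91.4 control), and MRPL10, MRPS17 and UQCRBP1 were the 3 lower (2.29%). MRPL1 and UQCRBP1, a pseudogene with 38.5 on the knockdown array and 52.8 on the control array, were named after their values were seen. MRPL10 alone reached this size in more than 1 line.

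Mitochondrial genes outside the symbol rule were compared in the same fit. Of 12 tested genes of the tricarboxylic acid cycle, 10 were below 0, as were 5732 of all 11109 tested genes. DLST was lower at an unadjusted p under 0.05 only (-0.17 ± 0.069, limma adjusted p = 0.575). CS, which encodes citrate synthase, was the 1 called. CS measured 505.3, 488.3, 663.0 and 528.1 on knockdown arrays, against 704.3, 670.6, 915.0 and 758.9 on control arrays, so each line's knockdown array was lower and the groups did not overlap. Its difference was -0.48 ± 0.060 (adjusted p = 0.0147). The difference kept its size without any 1 line, from -0.47 to -0.49, but the adjusted p was then 0.172 when OPM2 was left out, 0.0973 for KMS18, 0.0961 for KMS34 and 0.0502 for KMS11. Among 5 electron carriers and dehydrogenases, 29 assembly factors, 11 import factors, 17 further mitoribosome genes, 6 translation factors and 8 regulators of mitochondrial transcription, 0 genes passed, and GPD2, CHCHD4 and MRM2 were the 3 at an unadjusted p under 0.05. GPD2, the glycerol phosphate dehydrogenase that feeds electrons into the chain, averaged 161.7 on knockdown arrays and 138.4 on control arrays, a difference of 0.24 ± 0.066 (adjusted p = 0.324). CHCHD4, which oxidises and traps small proteins in the intermembrane space, averaged 84.9 on knockdown arrays and 98.3 on control arrays, a difference of -0.21 ± 0.063 (adjusted p = 0.417).

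The lines differed from each other far more than the knockdown differed from the control. A moderated F test in limma passed for 116 of 137 members (84.7%), against 75.7% of all tested genes. Line means at least 2-fold apart were found for 15 members (10.9%), against 18.8% of all tested genes, while the median range was 0.54 for members and 0.52 for all tested genes on the log2 scale. The residual of this fit is the spread of the knockdown differences between lines, so a line's own culture-to-culture spread was not measured.

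On the deposited scale the members as a group stood highest in KMS34 and lowest in KMS18, an order that quantile normalization changed. Set against the other 3 lines, KMS34 had 66 members higher (48.2%, against 24.4% of all tested genes) and 13 lower (9.49%, against 20.9%), with a median difference of 0.18. In KMS18 17 members were higher (12.4%, against 19.4%) and 66 lower (48.2%, against 28.9%), with a median of -0.18. The medians were the same way in each condition: in KMS34 0.19 among the knockdown arrays and 0.17 among the control arrays, and in KMS18 -0.15 among the knockdown arrays and -0.22 among the control arrays. KMS34 held the highest line mean for 54 members (39.4%, against 23.1%) and KMS18 the lowest for 57 (41.6%, against 25.5%). In some related lists KMS34 also had more genes higher than lower. They were 18 and 1 of the 43 cytosolic ribosomal protein genes (median 0.17). Of the 17 mitoribosome genes outside the symbol rule they were 10 and 2, and of the 29 assembly factors outside it 11 and 2. The 12 tested tricarboxylic acid cycle genes went the other way in KMS34, with 4 higher and 6 lower (median -0.18). In KMS18 they went the same way as the members, with 0 higher and 7 lower (median -0.28). The mitoribosome genes outside the rule had 3 higher and 10 lower in KMS18 (median -0.25). For the assembly factors outside it the counts there were 2 and 9 (median -0.07), and for the cytosolic ribosomal protein genes 6 and 5 (median -0.03). Whether the members differed from these lists was not tested. The member shares higher in KMS34 and lower in KMS18 exceeded those of all genes by less among brighter genes and after quantile normalization. The cause was not tested. Among the brighter 50% of genes, KMS34 was higher for 51.2% of members and 32.4% of genes, and KMS18 lower for 52.0% of members and 38.7% of genes. After quantile normalization KMS34 had 48 members higher and 17 lower (genes 21.0% and 23.5%, median 0.09), and KMS18 31 higher and 45 lower (genes 26.0% and 23.3%, median -0.04). The lowest median was then that of KMS11 (-0.10), and that of OPM2 (0.09) was close to that of KMS34. Centring each array on its median gave 69 members higher and 12 lower in KMS34 (genes 25.9% and 18.8%, median 0.20). In KMS18 it gave 14 higher and 68 lower (genes 18.1% and 29.8%, median -0.19). Without KMS11, 8 members in place of 17 were higher in KMS18.

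In KMS11 and OPM2 the shares lay nearer to those of all tested genes. KMS11 had 41 members higher (29.9%, against 31.0%) and 33 lower (24.1%, against 24.5%), and OPM2 had 37 higher (27.0%, against 22.6%) and 40 lower (29.2%, against 26.1%). Both splits turned under quantile normalization but not when each array was centred on its median. Centring gave 44 higher and 32 lower in KMS11 (genes 31.5% and 23.5%). In OPM2 it gave 35 higher and 41 lower (genes 20.7% and 26.9%). Quantile normalization gave 23 higher and 52 lower in KMS11 (genes 23.5% and 28.8%), with the median at -0.10 in place of 0.04, and 53 higher and 31 lower in OPM2 (genes 26.7% and 23.2%). Without KMS18, 24 members were higher in OPM2.

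**Figure D2:**
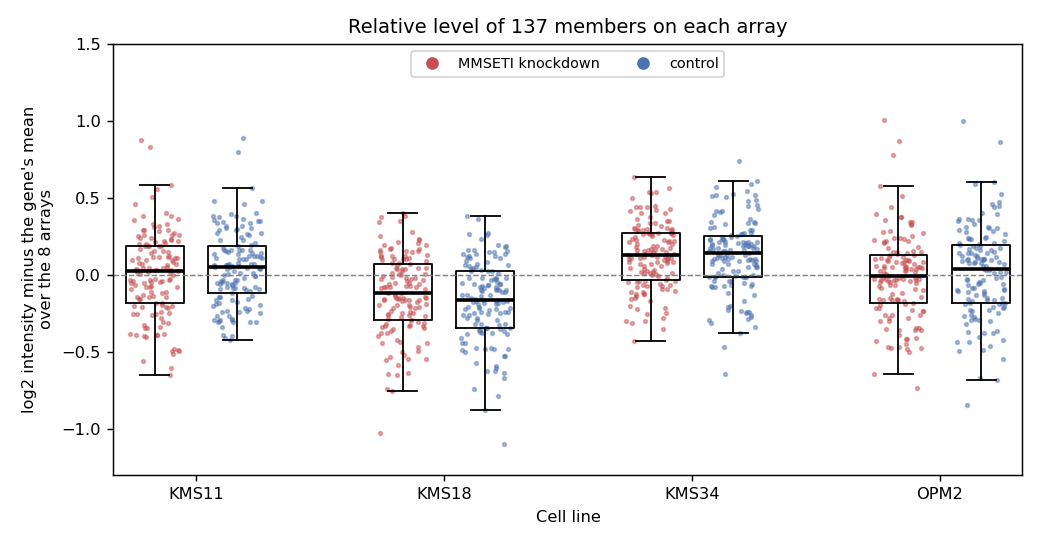
Log2 intensity of each of the 137 tested members minus its own mean over the 8 arrays, by line, with the knockdown array left of the control array. Dots are genes, boxes span the quartiles with the median as a thick line, and whiskers reach the last gene within 1.5 box lengths. The medians of both KMS34 arrays (0.13 and 0.14) lie above those of the other lines, and those of both KMS18 arrays (-0.12 and -0.16) below.

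**Figure D3:**
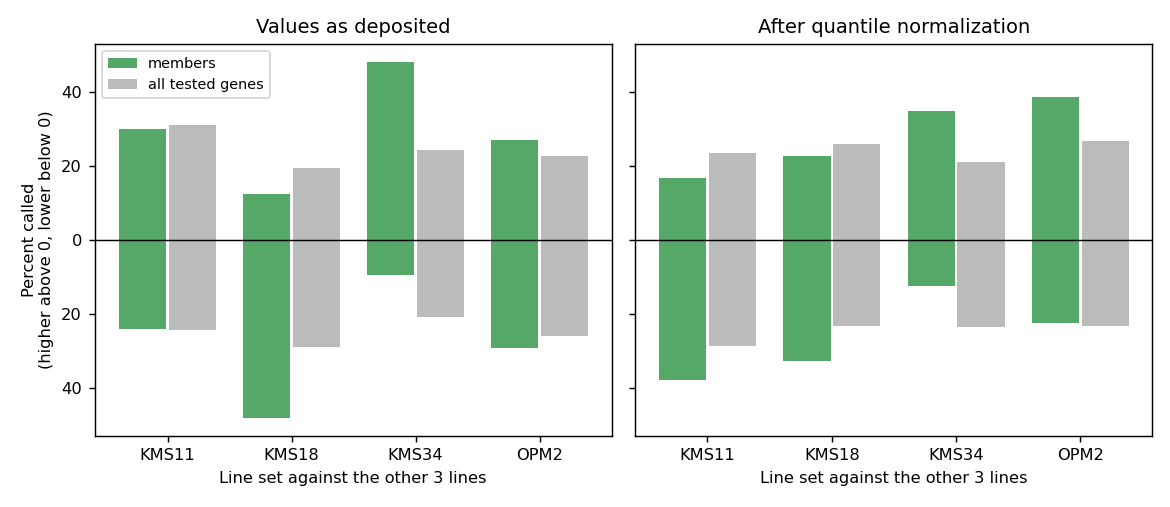
Percent of the 137 members (green) and of all 11109 tested genes (grey) called higher (upward bars) or lower (downward bars) in each line against the other 3, with the deposited values on the left and after quantile normalization on the right. The green bars exceed the grey ones upwards in KMS34 and downwards in KMS18 on both sides. In OPM2 they do so on the left in both directions (27.0% against 22.6% higher, 29.2% against 26.1% lower). After quantile normalization they do so upwards in OPM2 (38.7% against 26.7%) and downwards in KMS11 (52 of the 137 members, against 28.8% of genes).

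The classes differed in their order of lines. The counts that follow can be read against all tested genes, of which 24.4% were higher in KMS34, 28.9% lower in KMS18, 31.0% higher in KMS11 and 26.1% lower in OPM2. Of the 25 small-subunit proteins of the mitoribosome, KMS34 had 15 higher and 1 lower (median 0.26), and KMS18 had 2 higher and 15 lower (median -0.23). Of the 48 large-subunit proteins, KMS34 had 21 higher and 3 lower, and KMS18 had 9 higher and 20 lower. The 5 complex III members had their lowest median in KMS11 (-0.32) and their highest in OPM2 (0.24), and the 3 ATP synthase members had medians of -0.03 in KMS34 and 0.28 in OPM2. Of the 7 tested noncoding RNA and pseudogene symbols, 0 were higher in KMS34 (median -0.17), and their median was 0.13 in KMS18. The outer membrane translocase was low in KMS18, where 7 of 9 TOMM genes were lower and 0 higher, with a median of -0.43. TOMM22, a receptor that hands proteins to the channel, measured 286.9 (knockdown) and 249.3 (control) in KMS18, and 369.8 to 491.3 on the 6 arrays of the other lines. Both KMS18 values lay below all others, with a log2 difference of -0.70 (adjusted p = 2.7e-05). TOMM40 differed in the same way, by -0.71 (adjusted p = 5.02e-06). TIMM50 measured 595.7 and 600.7 in KMS18, against 1003.9 to 1190.2 in the other lines, with a difference of -0.84 (adjusted p = 1.62e-06).

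Assembly factors of complex IV differed by line as well. In KMS11, 5 of 6 were higher and 0 lower (median 0.45), in KMS34 4 were higher and 1 lower, and in KMS18 and OPM2 4 each were lower, with a median of -0.60 in OPM2. These 6 are only the factors whose symbols match the rule. Of the 29 tested assembly factors outside it, for complex IV and other complexes, OPM2 had 4 higher and 10 lower (median -0.10). The 4 higher in OPM2 were SCO1, CMC2, COA6 and PET117. COX17, which carries copper to complex IV, measured 60.5 (knockdown) and 52.7 (control) in OPM2, against 123.7 and 122.9 in KMS11, 87.2 and 88.7 in KMS18, and 125.4 and 138.4 in KMS34. OPM2 lay below all other arrays, by a factor of 2.00 (adjusted p = 7.52e-07). COX18, which inserts a part of the catalytic subunit COX2 into the membrane, measured 403.4 and 394.2 in KMS11, 179.0 and 157.6 in KMS18, 245.9 and 257.7 in KMS34, and 172.9 and 142.6 in OPM2. KMS11 stood above the others 2.12-fold (adjusted p = 4.2e-07), while KMS18 and OPM2 overlapped. COX19, another copper-handling factor, was 1.68-fold higher in KMS11 (adjusted p = 4.14e-06). Of the 14 complex IV subunits themselves, 7 were higher and 3 lower in KMS34, and COX8A was higher in KMS34 and OPM2 and lower in KMS11 and KMS18 (in KMS18 after quantile normalization the adjusted p was 0.0523).

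The widest range belonged to MRPS21 of the small mitoribosome subunit, at 3.82-fold between line means. It measured 1407.2 and 1403.6 in OPM2 (knockdown, then control), against 748.2 and 738.2 in KMS11, 377.6 and 359.3 in KMS18, and 931.5 and 907.2 in KMS34. The 4 lines were fully separated while knockdown and control arrays nearly coincided (log2 difference 0.03 ± 0.060). RefSeq lists 9 pseudogene copies of MRPS21. UQCRHL came next at 3.29-fold, with 1502.6 and 1498.2 in OPM2, against 592.9 and 606.1 in KMS11, 511.8 and 406.8 in KMS18, and 763.7 and 774.7 in KMS34. Its parent UQCRH, the hinge protein of complex III, ranged 1.65-fold, with 175.6 and 167.1 in OPM2 and 102.1 to 121.8 on all other arrays. OPM2 was thus the high line on both rows, and signal of the copies cannot be told apart.

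MRPL50, a large-subunit protein, measured 608.2 and 614.0 in KMS11, against 198.4 and 234.5 in KMS18, 334.2 and 355.3 in KMS34, and 258.2 and 276.0 in OPM2. KMS11 was above the others 2.26-fold (adjusted p = 8.92e-08). MRPS28 was lowest in OPM2, with 72.6 and 75.2 there and 118.7 to 174.6 on the other arrays, a factor of 1.93 (adjusted p = 1.27e-06). MRPL45 was lowest in KMS18, with 284.7 and 287.5 there and 479.7 to 628.9 elsewhere, a factor of 2.00 (adjusted p = 7.87e-07). MRPS35 and TIMM22, the core of the carrier translocase of the inner membrane, were also lowest in KMS18, by factors of 1.95 and 1.84. MRPS27 was highest in OPM2, 1.88-fold, and MRPL35 was 1.63-fold higher in KMS11.

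**Figure D4:**
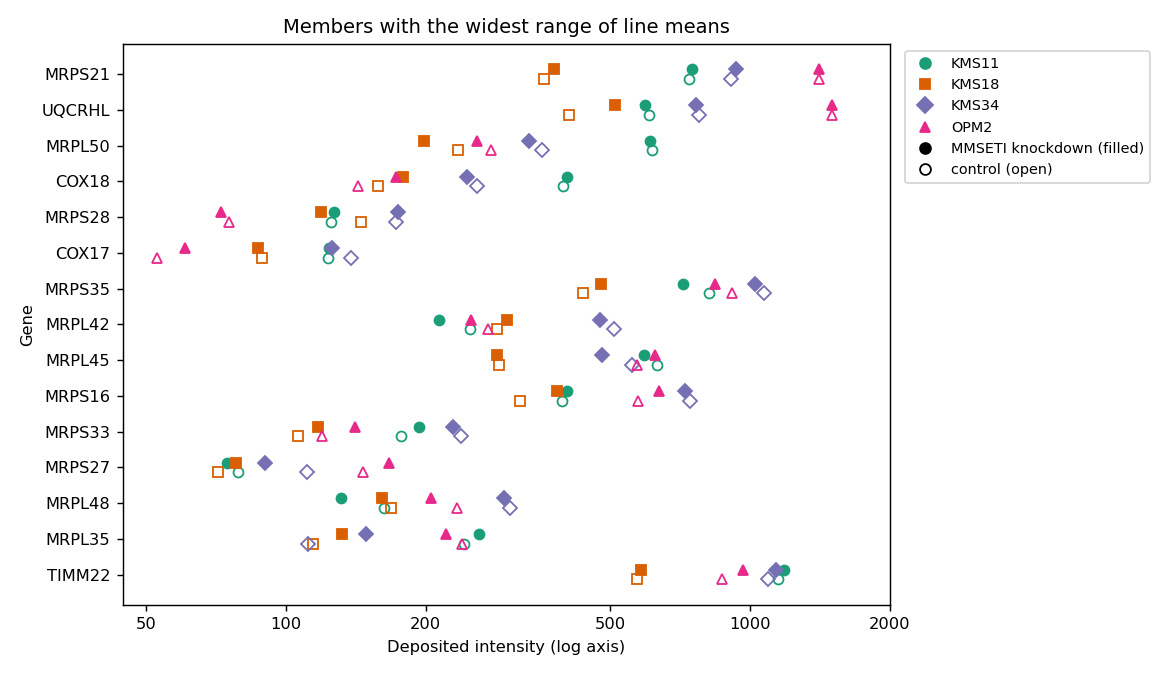
Deposited intensity (log axis) of the 15 members with line means furthest apart, with filled symbols for knockdown arrays and open symbols for control arrays, coloured by line. For MRPS21 the OPM2 arrays lie at 1407.2 and 1403.6 and the KMS18 arrays at 377.6 and 359.3, with the filled and open symbols of each line close together. They lie further apart for MRPL35 in KMS34 (148.8 knockdown, 111.5 control) and UQCRHL in KMS18 (511.8 knockdown, 406.8 control).

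Single members also ran against their class. MRPL15, MRPL3, TIMM10 and MRPL13 were higher in KMS18, where most called members were lower. MRPL15 measured 818.0 and 807.3 in KMS18, above all other arrays (441.3 to 624.3), by a factor of 1.44 (adjusted p = 0.000103). MRPL3 was 1.41-fold higher (adjusted p = 0.000148). For TIMM10, a small chaperone that works with TIMM9, the contrast in KMS18 rested on a low KMS11: it was 1.28-fold (adjusted p = 0.00306), but without KMS11 the log2 difference was 0.13 (adjusted p = 0.208). For MRPL13 it was 1.25-fold (adjusted p = 0.0126), and without OPM2 0.12 (adjusted p = 0.336). In KMS34, MRPL35, MRPL1, TIMM8B and MRPL9 were lower, by factors of 1.49, 1.43, 1.40 and 1.37.

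Several contrasts were shared by members on the same chromosome. By the RefSeq annotation 106 tested members lie on 12 chromosomes with at least 5 each. All 8 members on chromosome 3 were higher in KMS34, where 42.7% of the 564 tested genes of that chromosome were, and 7 of the 8 were lower in OPM2 (54.6%). Among the 7 are COX17 and TOMM70, a receptor for carrier proteins, and the exception in OPM2 was UQCRC1 (-0.0056, adjusted p = 0.959). On chromosome 12, 6 of 6 members were higher in KMS34 (46.1% of its genes), including MRPL42 and MRPS35. On chromosome 11, 10 of 13 were lower in KMS11 (48.5%), including COX8A, TIMM10 and MRPL48. On chromosome 1, 12 of 16 were lower in KMS18 (30.6%) and 8 were higher in OPM2 (27.9%), with MRPS21, UQCRH and UQCRHL in both counts. Low values in KMS18 were not particular to chromosome 1. Of all 137 tested members 66 were lower there (48.2%, against 28.9% of all tested genes) and 17 higher. On chromosome 8, 4 of 5 were lower in OPM2 (41.3%). Members were also called together on chromosomes whose genes as a whole stood near the shares of all tested genes. In KMS34, 6 of 9 members on chromosome 6 were higher (22.7% of its genes) and 6 of 12 on chromosome 17 (23.7%). The share of all tested genes higher in KMS34 was 24.4%. In KMS18, 7 of the 12 on chromosome 17 were lower (30.3%, against 28.9% of all tested genes). How far the members followed the other genes of their chromosome was not tested.

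**Figure D5:**
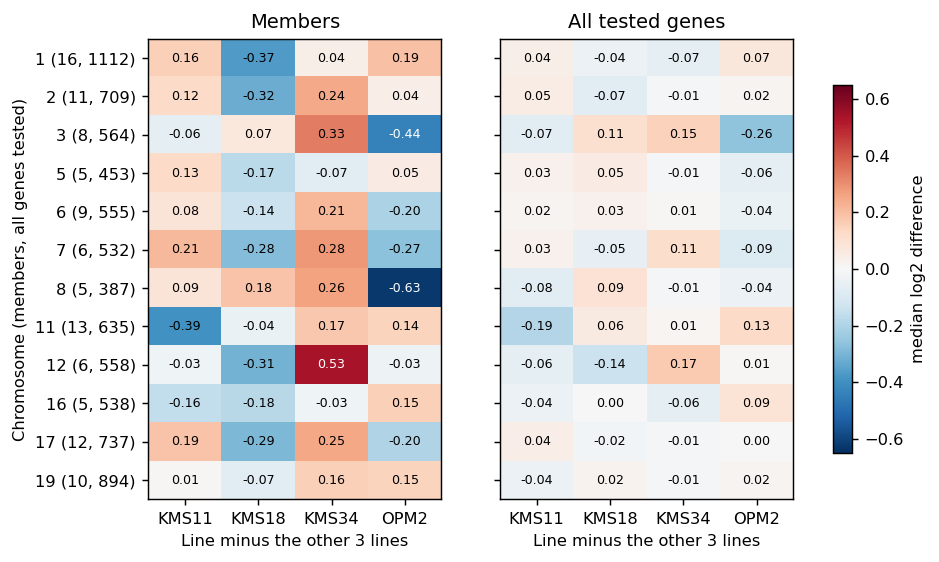
Median log2 difference between each line and the other 3 for tested members (left) and all tested genes (right), on the 12 chromosomes with 5 or more tested members. The numbers in brackets are the members and all tested genes of a chromosome. On chromosome 3 the medians of members and of all genes are both above 0 in KMS34 (0.33 and 0.15) and below 0 in OPM2 (-0.44 and -0.26).

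The 4 members furthest above the other lines in KMS34 were all mitoribosome proteins on different chromosomes. Of the tested genes on chromosome 12 (MRPL42) 46.1% were higher in KMS34, and on chromosome 11 (MRPL48) 25.5%. The shares were 41.5% on chromosome 7 (MRPS33) and 39.7% on chromosome 10 (MRPS16), against 24.4% of all tested genes. MRPL42 measured 474.9 and 509.7 in KMS34, against 213.4 to 300.0 on the other arrays, a factor of 1.89 (adjusted p = 1.37e-06). MRPL48 measured 294.4 and 304.1, against 131.1 to 233.8, a factor of 1.72 (adjusted p = 5.19e-06). MRPS33 measured 229.3 and 237.7, against 106.3 to 193.7, a factor of 1.68 (adjusted p = 7.71e-06). For these genes the KMS34 arrays lay above every other array, as they did for MRPS16. MRPS16 measured 724.6 and 741.3, against 319.9 to 637.5, a factor of 1.67 (adjusted p = 9.44e-06), and its second row showed a similar range of line means (0.87, against 1.07 for the brighter row).

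Their promoters, from RefSeq (GRCh38.p14), are printed to show short sequence matches that recur around the start of these genes. Each runs 5′ to 3′ on the gene's strand from 250 bases before the start to 30 after it, with the match in capitals. MRPL42 lies at chr12:93467264-93467543 on the plus strand and carries AAGATGGCG, a core of YY1 sites, just after the start. MRPL48 lies at chr11:73787624-73787903 on the plus strand, MRPS33 at chr7:141014923-141015202 and MRPS16 at chr10:73252615-73252894 on the minus strand. These 3 carry CTTCCGG, the reverse complement of the ETS core CCGGAAG, before the start in MRPL48 and at or just after it in MRPS33 and MRPS16.
MRPL42: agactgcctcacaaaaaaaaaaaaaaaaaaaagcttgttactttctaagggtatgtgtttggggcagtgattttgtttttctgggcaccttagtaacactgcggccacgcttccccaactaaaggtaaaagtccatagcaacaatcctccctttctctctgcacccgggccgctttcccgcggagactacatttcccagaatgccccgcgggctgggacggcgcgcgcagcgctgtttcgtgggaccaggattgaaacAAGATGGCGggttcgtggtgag
MRPL48: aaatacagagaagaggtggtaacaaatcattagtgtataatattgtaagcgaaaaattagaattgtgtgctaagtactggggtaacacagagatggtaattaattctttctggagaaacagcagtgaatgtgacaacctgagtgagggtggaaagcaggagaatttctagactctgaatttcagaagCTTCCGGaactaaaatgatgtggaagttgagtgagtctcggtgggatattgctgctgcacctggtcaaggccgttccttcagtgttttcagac
MRPS33: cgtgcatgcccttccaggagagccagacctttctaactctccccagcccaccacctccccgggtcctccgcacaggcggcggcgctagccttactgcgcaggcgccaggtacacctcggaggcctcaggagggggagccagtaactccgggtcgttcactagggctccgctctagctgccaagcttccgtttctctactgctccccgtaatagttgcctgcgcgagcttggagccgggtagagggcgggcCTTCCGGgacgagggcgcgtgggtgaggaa
MRPS16: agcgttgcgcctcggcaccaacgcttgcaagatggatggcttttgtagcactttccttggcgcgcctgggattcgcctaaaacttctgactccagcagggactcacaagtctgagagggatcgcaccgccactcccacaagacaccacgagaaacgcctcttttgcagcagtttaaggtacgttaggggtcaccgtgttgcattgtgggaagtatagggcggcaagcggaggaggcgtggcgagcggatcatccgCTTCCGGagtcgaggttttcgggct

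Promoter windows of 250 bases before to 50 after the start were found for 119 of the 137 tested members and searched on both strands. The ETS core CCGGAAG was in 47 of them (39.5%), against 17.2% of 8530 windows of tested genes and 10.7% of all 27305 RefSeq windows. The YY1 core AAGATGGCG was in 18 (15.1%), against 3.48% and 1.85%. The NRF1 core CGCATGCGC, part of the palindrome bound by a regulator of respiratory genes, was in 7 (5.88%), against 3.55% and 2.10%, and CCAAT was in 45 (37.8%), against 35.9% and 35.7%. The ETS and YY1 cores stood together in 5 windows and shared bases in 0. In relation to the lines, the ETS core was in 28 of 59 windows of members higher in KMS34, in 1 of 11 of those lower there, and in 18 of 49 of those not called. In KMS18 it was in 26 of 63 windows of members lower there, in 5 of 13 of those higher and in 16 of 43 of those not called. The YY1 core was in 9 of 59, 2 of 11 and 7 of 49 windows of members higher, lower and not called in KMS34, and in 7 of 63 windows of members lower in KMS18, 0 of 13 of those higher and 11 of 43 of those not called. The NRF1 core was in 3, 0 and 4 windows of the KMS34 classes and in 4, 1 and 2 of the KMS18 classes, in the same orders. The smallest classes held only 11 and 13 windows. Matching shares for all tested genes called in these lines were not counted, so no background stands beside these splits. A relation between a core and the level in a line was not tested.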

How the data were processed

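The authors deposited linear intensities, 1 value per array and transcript cluster of the Affymetrix Human Gene 2.0 ST array; per the series text they used GeneSpring, with the background correction, normalization and summarization not stated. The table held 44629 rows, of which the platform annotation named 15835 with 1 gene symbol, 0 with several and 28794 with none (unnamed here). The brightest row stood for each gene. Log2 of the deposited intensities was taken, since the design had assumed log2 values, and genes under the 25th percentile of mean log2 intensity (5.54) were left out. Limma 3.58.1 in R 4.3.3 (lmFit, eBayes) was fitted to all 11109 genes with knockdown and cell line as terms, and p-values were adjusted by Benjamini-Hochberg over all of them at 0.05. Each line was set against the mean of the other 3 in the same fit. Promoters were searched in Python 3.11.15.

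The pairing comes from the cell line in the labels: same-line deviations from the group means correlated at 0.925 to 0.932, those of other lines at most -0.135. The number of arrays limits the precision, and raw signals and detection calls were not used, so nothing is said on background. Members, gene lists, motifs and tests were chosen with earlier results of these data known. Named were the members with the smallest knockdown p (with the same sign in 4 lines, and by class), the 15 with the widest range of line means, and up to 4 per line and direction by contrast with the other lines and by knockdown difference. The other genes named were up to 2 per comparison list and direction, and members of the classes and chromosomes described, which were chosen after their values were seen. Chromosomes are from RefSeq (GRCh38.p14). Alternatives were scaling, filter, rows per gene, leaving out each line, block and variance model. Scaling was quantile normalization or centring on array medians, each over the named rows only. In 5 simulated draws in which 200 of 11109 genes were changed, 62.4% of knockdown differences of 0.4 and 92.2% of 0.75 were called, with 3.37% of the calls false.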

Additional observations from a re-analysis of the deposited data

Results flagged for a closer look

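For 73 genes named here, each line's knockdown difference was compared with those of the other 3 lines. In this way 2 were found. Chance alone singles out about 1 in 20 such groups of 4 values when genes are chosen without regard to these differences. Some of the 73 were named for their knockdown difference in 1 line, among them UQCRHL in KMS18 and MRPS2 in OPM2. That rate therefore does not apply to them. UQCRHL, the copy of UQCRH, differed by 0.3313 (log2) between the knockdown and control array of KMS18, and by -0.03, -0.02 and 0.0043 in KMS11, KMS34 and OPM2. MRPS2, a small-subunit mitoribosome protein, differed by 0.1864 in OPM2, and by -0.02, -0.05 and -0.05 in KMS11, KMS18 and KMS34. There is 1 array per condition and line, so neither difference was tested.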

How the results depend on the processing

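No alternative called a member for the knockdown. The 13 genes called overall became 29 with trend and robust variances, 4 without a filter, 3 with cell line as a random replicate block, 0 without the replicate block, and 1 to 2 when a line was left out. The 5 members at an unadjusted p under 0.05 became 9 with trend and robust variances, 0 without the block and 2 to 6 when a line was left out. After quantile normalization, 23 members were higher and 52 lower in KMS11 (main values 41 and 33) and 31 were higher in KMS18 (17). Leaving out a line gave 8 to 20 members higher in KMS18, 24 to 40 higher in OPM2 (37) and 31 to 49 higher in KMS11. The median knockdown difference stayed between -0.03 and 0.01. The small knockdown difference of ATP5MK turned to 0.0038 under quantile normalization. The knockdown differences of some members, not of all, were followed across these settings. Among those followed, 12 changed sign when a line was left out, with ranges of -0.083 to 0.075 for ATP5IF1, -0.029 to 0.056 for ATP5MJ, -0.048 to 0.037 for ATP5MK, -0.041 to 0.087 for COX10-DT, -0.0875 to 0.0085 for COX20, -0.14 to 0.013 for MRPL23-AS1, -0.14 to 0.0072 for TIMM44, -0.011 to 0.12 for TOMM20, -0.037 to 0.099 for TOMM22, -0.051 to 0.0044 for UQCRB, -0.042 to 0.0375 for UQCRC2 and -0.016 to 0.105 for UQCRHL. The cause was not tested. GLO1 and CS were not called without the block (adjusted p 1 each), CS was not called when any line was left out, and MRPL45's range without KMS18 was 0.24 (adjusted p = 0.113). Of the other values for single genes, 1418 kept direction and side of the threshold. Signal over background was not available, which limits what can be said of dim genes.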
